A study of Mus musculus with 18 samples.

Results

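The genes that lie around Tyrobp on mouse chromosome 7 were described in microglia isolated from the striatum of mice with and without Tyrobp. Members were chosen by position and level: a gene start between 26.4 and 34.4 Mb of chromosome 7 (GRCm38, GENCODE M21) and at least 1 CPM (reads of the gene relative to the total count of the sample, scaled to 1000000) in at least 3 of the 18 labelled samples, leaving out Tyrobp itself and its neighbour Hcst. This gave 143 members of 413 genes in the interval, out of 55536 genes in the count table. The difference between the genotypes did not enter the choice of a member, but the interval was picked with earlier results of these samples known, so how many of its genes differ is a description.

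Tyrobp encodes an adaptor protein of the myeloid cell surface that passes signals from receptors such as Trem2 into microglia. Genes that lie close to a targeted locus on a chromosome are inherited with it more often than distant ones. The interval is gene-dense: it holds many zinc finger genes in tandem clusters, genes of mitochondria, of RNA processing and of signalling, and, near Tyrobp, genes known from neurons and myelin such as Aplp1 and Mag. Every Tyrobp-null sample carries the targeted allele with whatever sequence is linked to it, so an effect of the missing protein and one of linked sequence cannot be told apart in this design. The table holds counts and no reads, and the strain origin of the interval was not tested.

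RNA-seq was carried out on microglia of C57BL/6 mice (C57Bl6/J in the methods) taken from the striatum with magnetic beads against CD11b. There were 5 wild type (WT) samples (1 female), 3 Tyrobp-/- samples (2 females), 5 samples from Q175 mice (4 females), which carry an expanded CAG repeat in the huntingtin gene and model Huntington's disease, and 5 samples of the double mutant Q175;Tyrobp-/- (2 females). Q175 was carried on a single allele according to the methods, and Tyrobp-/- is a constitutive deletion, absent from all cells of the animal. The labels describe a pair of striata per sample and the methods a single striatum, so it was not settled how much tissue stands behind a sample, and nothing says that animals were pooled beyond that. Below, the 8 samples of Tyrobp-/- and Q175;Tyrobp-/- are called Tyrobp-null and the 10 of WT and Q175 Tyrobp-intact.

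Total counts ran from 11260410 to 29771983 per sample. The mean level of 20 microglial markers lay between 831 and 1308 normalized CPM (geometric mean over the list) in the Tyrobp-null samples and between 615 and 1157 in the Tyrobp-intact ones. Markers of other cells were present in all samples, with 10 oligodendrocyte markers at 99.3 to 241 and 72.6 to 327, 10 astrocyte markers at 27.7 to 136 and 25.1 to 169, and 10 neuronal markers at 13.02 to 47.9 and 10.5 to 53.6, the Tyrobp-null range first. No gene of the 4 lists was at 0 in any sample, so microglia were not the sole source of RNA. The lists hold different genes, so their levels do not give the share of RNA from each cell type. In such bulk samples fewer cells of a type cannot be told apart from less RNA per cell. Tyrobp itself (chromosome 7, 30413760 to 30417585) was at 195 to 478 normalized CPM in the Tyrobp-intact samples and at 9.91 to 21.3 in the Tyrobp-null samples, on the labelled side in all 18.

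The sequences in front of 3 members are shown because Zfp14, Zfp30 and Zfp74 are the zinc finger genes of the interval that stood highest in the Tyrobp-null samples relative to the intact ones. Each line gives the 250 bases before the gene start in RefSeq (GRCm38.p6), read 5′ to 3′ on the strand of the gene, and capitals mark the longest stretch, 13 bases, that any pair of them shares on either strand. The Zfp14 bases are chr7:30051397-30051646 (minus strand), those of Zfp30 chr7:29783718-29783967 (plus strand) and those of Zfp74 chr7:29954066-29954315 (minus strand).
Zfp14: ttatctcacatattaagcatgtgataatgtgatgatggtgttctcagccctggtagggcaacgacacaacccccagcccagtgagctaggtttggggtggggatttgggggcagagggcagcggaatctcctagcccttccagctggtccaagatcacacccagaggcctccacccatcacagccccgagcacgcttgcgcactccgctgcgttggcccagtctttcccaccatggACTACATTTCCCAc
Zfp30: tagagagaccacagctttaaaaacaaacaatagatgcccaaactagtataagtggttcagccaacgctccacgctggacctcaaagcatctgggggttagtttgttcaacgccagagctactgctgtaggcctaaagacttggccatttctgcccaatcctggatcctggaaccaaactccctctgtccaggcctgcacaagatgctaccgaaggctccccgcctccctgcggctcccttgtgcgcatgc
Zfp74: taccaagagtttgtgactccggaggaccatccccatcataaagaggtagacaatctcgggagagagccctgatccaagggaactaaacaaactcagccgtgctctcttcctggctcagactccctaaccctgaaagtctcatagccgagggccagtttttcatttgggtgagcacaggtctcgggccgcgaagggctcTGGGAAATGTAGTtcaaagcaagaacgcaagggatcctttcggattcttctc

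In the Tyrobp-null samples, 4 of the 143 members passed an adjusted p of 0.1 in the comparison of all Tyrobp-null with all Tyrobp-intact samples (edgeR quasi-likelihood test with Benjamini-Hochberg adjustment over 17329 genes, with Q175 as a term). Lgi4, Zfp14 and Zfp30 were higher. The remaining one, the long noncoding RNA D7Ertd128e, was lower, but it passed the level filter through intact samples alone and so had to differ, and its values are given as a description. Of the 143, 6 reached 1 CPM in fewer than 3 samples of one genotype, 5 of them in the null samples (D7Ertd128e, Sbsn, Ggn, Prx and Lsr) and 1 in the intact ones (Gm10640), and among the 137 others 3 passed the threshold. Zfp30 and Zfp14 start within 1 Mb of Tyrobp on one side of it and Lgi4 on the other. The share of all genes past the same threshold was 0.167% (29 genes), with 0.0346% higher and 0.133% lower, against 3 members higher and 1 lower. Of the 1183 genes of chromosome 7 outside the interval, 2 passed it, Siglecg and Klk8, and they start 12.99 and 13.4 Mb from Tyrobp.

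Lgi4 (ENSMUSG00000036560, 31059342 to 31070935, plus strand) encodes a secreted protein with leucine-rich repeats that is known from the myelination of peripheral nerves. Its normalized CPM was 12.3, 12.9, 6.39, 19.9 and 14.04 in the WT samples, and 49.3, 54.3 and 40.2 in the Tyrobp-/- samples. In Q175 it was 22.1, 28.7, 24.7, 30.7 and 16.1, and in Q175;Tyrobp-/- it was 48.4, 37.2, 36.7, 58.5 and 55.6. All 8 Tyrobp-null samples lay above all 10 intact ones, the lowest at 36.7 and the highest intact sample at 30.7. The difference was 2.56-fold, a log2 fold change of 1.35 ± 0.20 (SE; edgeR adjusted p = 0.0035). The means were 13.1 ± 4.84 (SD, n = 5) in WT, 47.9 ± 7.12 (n = 3) in Tyrobp-/-, 24.5 ± 5.78 (n = 5) in Q175 and 47.3 ± 10.1 (n = 5) in Q175;Tyrobp-/-. The null groups thus lay within an SD of each other. The difference between the genotypes on the log2 scale was 1.95 ± 0.30 without Q175 and 0.96 ± 0.20 with it, and the interaction of -0.92 ± 0.36 did not pass the threshold (edgeR adjusted p = 0.71). The gene overlaps Fxyd3 on the opposite strand in the annotation, and the libraries were not directional, so reads of the overlap cannot be assigned to a strand.

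Zfp14 (ENSMUSG00000053985, 30036359 to 30051380, minus strand) encodes a zinc finger protein, of the large family that binds DNA through repeated fingers. It was at 21.4, 15.7, 18.2, 11.7 and 14.6 normalized CPM in WT and at 29.0, 25.2 and 40.2 in Tyrobp-/-. In Q175 it was at 16.6, 22.9, 17.6, 15.5 and 12.8, and in Q175;Tyrobp-/- at 39.8, 47.1, 49.3, 22.6 and 26.8. The lowest Tyrobp-null sample, at 22.6, lay just under the highest intact one, at 22.9, and in 79 of the 80 pairs of a null and an intact sample the null sample was higher. The difference was 2.06-fold (log2 fold change 1.05 ± 0.17 SE, edgeR adjusted p = 0.0072) and of like size without Q175 (1.01 ± 0.23) and with it (1.13 ± 0.23). No other gene overlaps it in the annotation.

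Zfp30 (ENSMUSG00000047473, 29783998 to 29794702, plus strand), another zinc finger gene, was at 8.29, 9.91, 7.82, 8.32 and 9.83 normalized CPM in WT and at 13.2, 11.1 and 9.52 in Tyrobp-/-. In Q175 it was at 8.76, 6.15, 8.995, 6.77 and 6.29, and in Q175;Tyrobp-/- at 12.1, 13.8, 14.1, 12.9 and 13.7. The Q175;Tyrobp-/- samples all lay above every intact sample, whereas 1 Tyrobp-/- sample lay below the highest WT samples. The difference was 1.56-fold (log2 fold change 0.64 ± 0.13 SE, edgeR adjusted p = 0.043). It was 0.42 ± 0.23 on the log2 scale without Q175 and 0.85 ± 0.16 with it, and the interaction did not pass the threshold (0.50 ± 0.23, edgeR adjusted p = 0.71). The call was lost in 5 of the 18 fits that left out a sample (Tyrobp-/- replicate 15 and Q175;Tyrobp-/- replicates 11, 12, 13 and 16), and the edgeR adjusted p then reached 0.147.

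D7Ertd128e (ENSMUSG00000100029, 30885031 to 30886446, plus strand) is a long intergenic noncoding RNA with no function known from the annotation. In no Tyrobp-null sample did it reach 1 CPM, so the level filter chose it for its intact samples, and no test is given. Normalized CPM was 0.616, 0.536, 0.119, 0.525 and 1.73 in WT and 1.57, 0.199, 0.716, 1.02 and 1.49 in Q175. It was 0 in all 3 Tyrobp-/- samples and 0.0627, 0, 0, 0.119 and 0.0423 in Q175;Tyrobp-/-. The summed counts behind these values were small, at 152 reads in the 10 intact samples and 4 reads in the 8 null ones, with 5 null samples at 0. Relative to total counts the rate was 35.0 times higher in the intact samples (exact 95% interval 13.4 to 130, counting error only), and the fitted log2 fold change was -4.91 ± 0.69 (SE). Against the Tyrobp-/- samples, where 0 of 54208739 reads fell in the gene and the limit is 3 reads over the group, the WT level was at least 13.2-fold higher. The lowest intact and the highest null sample met at the same printed value of 0.119, with 2 reads each, so the separation of the groups rests there on scaling.

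**Figure D1:**
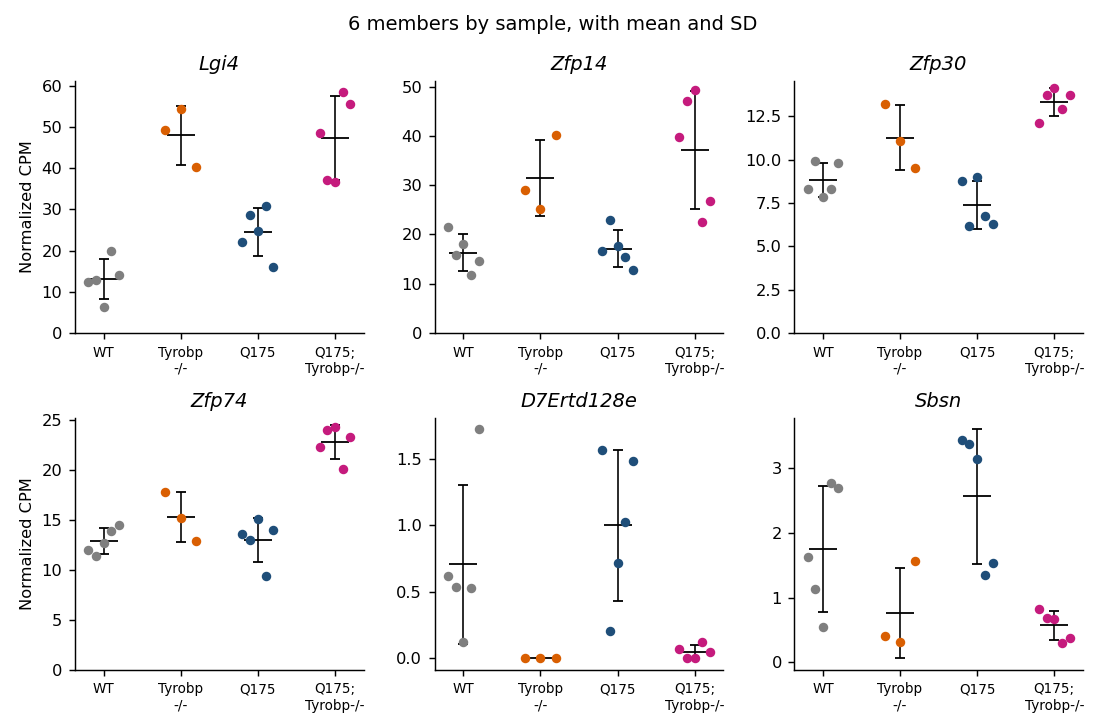
Normalized CPM (vertical axes, linear scale) of 6 members in each sample of the 4 groups, with 1 point per sample and the mean and SD in black. The Tyrobp-null samples of Lgi4 lie at 36.7 or above and the intact ones at 30.7 or below, those of Zfp14 meet at 22.6 and 22.9, and D7Ertd128e stays at 0.119 or below in the null samples.

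Just outside the threshold lay Zfp74, Sbsn and Haus5, which are named here after their values were seen, as are Ryr1 and Hspb6. Zfp74 (29930815 to 29954089), a further zinc finger gene, had a log2 fold change of 0.57 ± 0.12 and an edgeR adjusted p of 0.1004, and its level was 12.8 to 24.3 normalized CPM in the null and 9.33 to 15.05 in the intact samples. The 5 Q175;Tyrobp-/- samples, at 20.1 to 24.3, lay above all others, while the Tyrobp-/- samples, at 12.8, 15.2 and 17.8, overlapped the intact ones. Sbsn, which encodes suprabasin, a secreted protein known from the epidermis, was at 0.298 to 1.56 normalized CPM in the null and 0.538 to 3.45 in the intact samples (log2 fold change -1.76 ± 0.39, edgeR adjusted p = 0.134). It passed the level filter through intact samples, so its values are a description. Haus5, a subunit of the augmin complex of the mitotic spindle, was at 0.408 to 1.19 in the null and 1.09 to 2.70 in the intact samples (-0.91 ± 0.23, edgeR adjusted p = 0.217). Zfp74, Sbsn and Haus5 each overlap another annotated gene.

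DESeq2, run on the same 17329 genes, called 10 members at the same threshold, beside 0.791% of all genes (137). They were the 4 above and Zfp74, Hspb6, Sbsn, Haus5, Sipa1l3 and Ryr1, and their starts ran from 1.41 Mb before to 0.65 Mb after that of Tyrobp. Of the 10, D7Ertd128e and Sbsn, which reached 1 CPM in 1 null and 9 intact samples, passed the level filter through intact samples, and 8 were among the 137 past it in both genotypes. Hspb6, a small heat shock protein, was higher in the null samples (log2 fold change 0.75 ± 0.21, edgeR adjusted p = 0.326). Sipa1l3, of a family that acts on the small GTPase Rap, was at 28.4 to 64.2 normalized CPM in the null and 51.2 to 89.5 in the intact samples (-0.55 ± 0.15, edgeR adjusted p = 0.252). Ryr1, the calcium release channel of skeletal muscle, varied widely: 4.76 to 57.1 in the null samples, and 8.54, 18.1, 18.8, 25.8, 37.5, 52.3, 138, 276, 311 and 335 in the intact ones (-2.87 ± 0.76, edgeR adjusted p = 0.251). Of the intact samples 4 lay at 138 or above, and the other 6 overlapped the null samples.

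At an unadjusted p under 0.05 in the edgeR fit there were 33 members, 8 higher and 25 lower in the null samples. The shares of members were 23.1% in all, 5.59% higher and 17.5% lower, beside 8.79%, 1.32% and 7.47% of all genes tested. The lower ones include D7Ertd128e, Sbsn and Ggn, and among the 137 members past the filter in both genotypes there were 30 (21.9%), 8 higher and 22 lower. On chromosome 7 outside the interval the share was 10.4% (123 of 1183). The median absolute log2 fold change was 0.20 over the members, 0.16 over the rest of chromosome 7 and 0.15 over all genes tested, and the median signed value was -0.08 over the members and -0.02 over all genes. Without Tyrobp-/- replicate 20, a library with a high level of non-microglial markers, 37 members and 19.3% of all genes were at an unadjusted p under 0.05, and without Q175 replicate 4, the library with the lowest total count, 23 members and 4.50%. With a score of the non-microglial markers as a term in the fit the number was 37, beside 11.8% of all genes.

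Along the interval, the members with an unadjusted p under 0.05 fell into windows as follows. There were 2 of 10 members from 4 to 3 Mb before Tyrobp and 2 of 33 from 3 to 2 Mb before it. From 2 to 1 Mb before it there were 11 of 30, in the last 1 Mb before it 8 of 27 and in the first 1 Mb after it 10 of 34. The 11 include Ggn and the 10 include D7Ertd128e and Sbsn. These members passed the level filter through intact samples, so their part in the counts is a description. No gene from 1 to 3 Mb after Tyrobp passed the level filter, and of the 9 members from 3 to 4 Mb after it none had an unadjusted p under 0.05. In the window from 2 to 1 Mb before Tyrobp 10 of the 11 were lower, while in the window next to it on the side of Zfp14 as many were higher (4) as lower (4). Over all genes tested, 1294 were lower and 229 higher at an unadjusted p under 0.05. A majority of lower genes was thus not particular to that window. The median absolute log2 fold change was 0.26, 0.20 and 0.25 in the 3 windows between 2 Mb before and 1 Mb after Tyrobp and 0.20, 0.11 and 0.10 in the 3 outer windows that hold members.

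**Figure D2:**
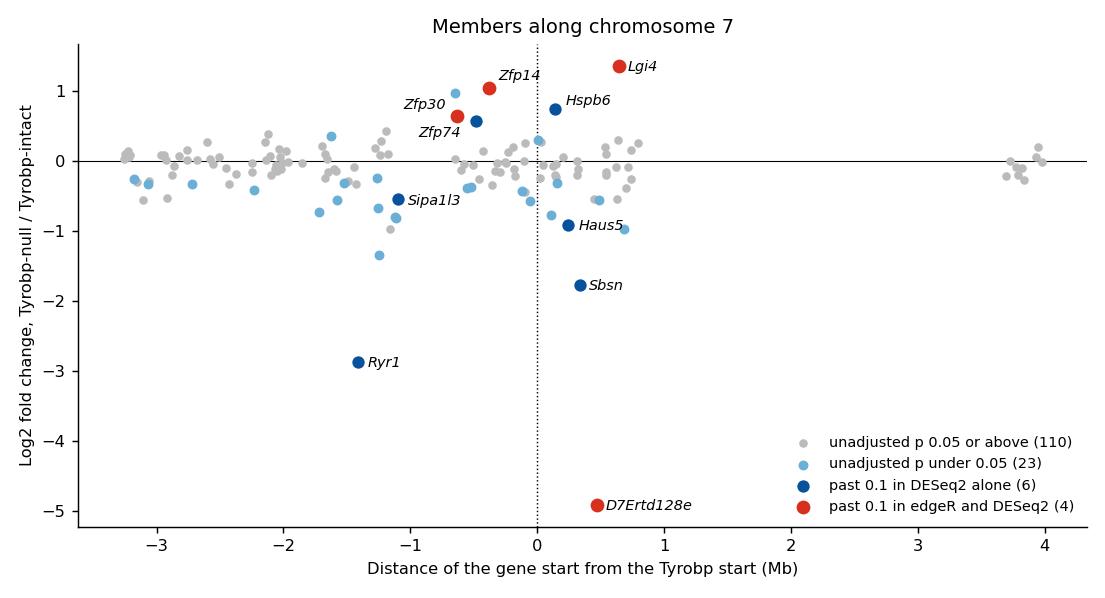
Log2 fold change of the 143 members between Tyrobp-null and Tyrobp-intact samples (vertical axis) by the distance of their start from that of Tyrobp in Mb (horizontal axis, dotted line at Tyrobp). The members past an adjusted p of 0.1 in edgeR and DESeq2 (red, 4) and in DESeq2 alone (dark blue, 6) lie between 1.41 Mb before and 0.65 Mb after Tyrobp, on both sides of 0.

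**Figure D3:**
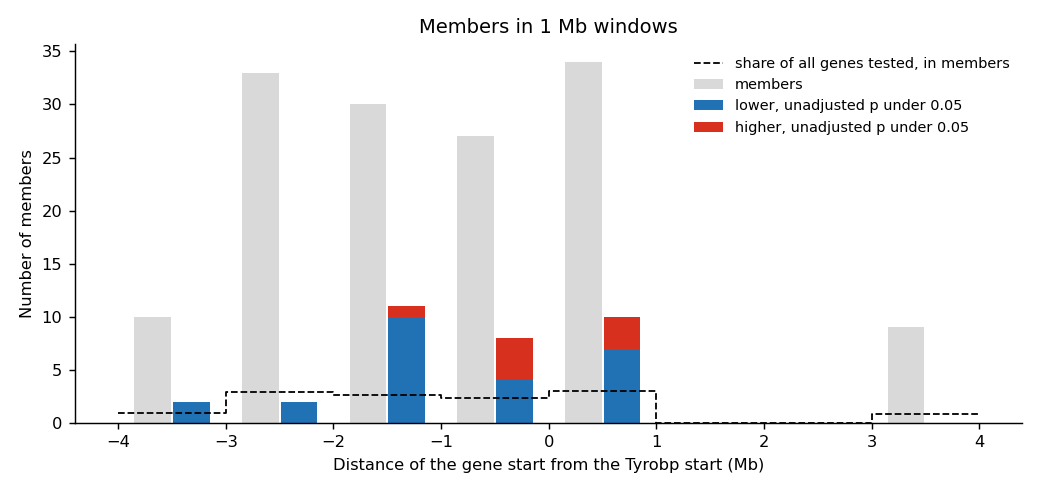
Number of members in each 1 Mb window of distance from the Tyrobp start (grey), and of those with an unadjusted p under 0.05 (blue, lower in the Tyrobp-null samples; red, higher). The dashed line gives the number that the share of all genes tested, 8.79%, would give in that window. The 3 windows between 2 Mb before and 1 Mb after Tyrobp, with 11, 8 and 10 members, stand above it. So does the window from 4 to 3 Mb before Tyrobp, with 2 of 10 members. The counts of lower members include Ggn, D7Ertd128e and Sbsn, which passed the level filter through intact samples.

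The genes nearest to Tyrobp did not pass the threshold in edgeR, although the log2 fold change of Hcst was close to that of Zfp30 (0.64). Hcst, the adjacent gene, which encodes the related adaptor DAP10, was at 2.38 to 6.88 normalized CPM in the null and 1.23 to 6.33 in the intact samples (log2 fold change 0.68 ± 0.22, edgeR adjusted p = 0.405). None of the 7 members that start within 100 kb of Tyrobp passed the threshold, beside 0.167% of all genes in edgeR and 0.791% in DESeq2. At an unadjusted p under 0.05 in edgeR there were 2 of the 7, beside 8.79% of all genes. Nfkbid, which encodes a nuclear inhibitor of NF-kappaB and is the nearest member, was at 7.28 to 12.6 in the null and 6.67 to 13.8 in the intact samples (0.30 ± 0.14, edgeR adjusted p = 0.542). Lrfn3, a synaptic adhesion molecule, had a log2 fold change of -0.58 ± 0.22 (edgeR adjusted p = 0.472). Aplp1, a relative of the amyloid precursor protein, had -0.24 ± 0.16, Syne4, which ties the nucleus to the cytoskeleton, -0.45 ± 0.23, and Sdhaf1, an assembly factor of mitochondrial complex II, 0.26 ± 0.16. Kirrel2 and Nphs1, adhesion proteins of the kidney slit diaphragm, had 0.27 ± 0.33 and -0.06 ± 0.37.

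The 23 zinc finger members lie in a distant cluster of 8 genes more than 2 Mb before Tyrobp and a near cluster of 15 between 0.65 and 0.25 Mb before it. Of the 23, 2 passed the threshold, both in the near cluster and both higher (Zfp14 and Zfp30), and 6 had an unadjusted p under 0.05, 3 higher and 3 lower, beside 0.167% and 8.79% of all genes. The 3 higher ones, Zfp30, Zfp74 and Zfp14, were separated along the chromosome by genes that did not pass the test, among them Zfp568 (0.14 ± 0.19) between Zfp74 and Zfp14. Zfp27 had a log2 fold change of -0.38 ± 0.12 and Zfp420 of -0.39 ± 0.13 (edgeR adjusted p = 0.383 and 0.428), and both lie between Zfp30 and Zfp74. Zfp27 was at 9.40 to 14.8 normalized CPM in the null and 11.7 to 20.5 in the intact samples. The median over the 23 was -0.04 on the log2 scale, beside -0.02 over all genes tested. Zfp146, the zinc finger member with the highest level per kb of exon, had -0.02 ± 0.13, a value whose sign changed with the scaling. Genes of such a family share sequence, and reads that match several of them may be split or left out by the counting, so their levels are uncertain to that extent.

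Of the 12 members that hold the 13-base stretch ACTACATTTCCCA or its reverse complement TGGGAAATGTAGT in the 250 bases before their start, 11 are zinc finger genes. These were 11 of the 22 zinc finger members and 12 of the 117 members that matched a RefSeq entry by symbol. Of all genes with an entry, 124 of 27025 held the stretch, and of all 32851 promoter entries 0.39% did. The stretch was picked because Zfp14 and Zfp74 share it, after their values were seen. Its holders spanned the range from Zfp420 (-0.39) over Zfp60 (0.01) and Zfp260 (-0.03) to Zfp74 (0.57) and Zfp14 (1.05) on the log2 scale, and Zfp30 does not hold it. The stretch thus lay before zinc finger genes that differed and before ones that did not.

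**Figure D4:**
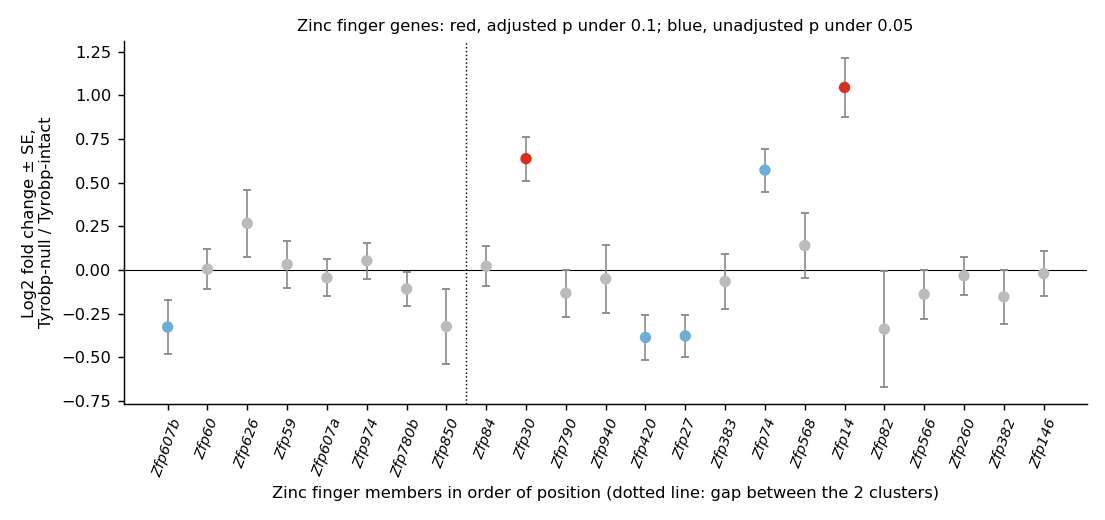
Log2 fold change ± SE between Tyrobp-null and Tyrobp-intact samples of the 23 zinc finger members in order of position (equal spacing, not to scale; the dotted line parts the distant cluster of 8 from the near cluster of 15). Zfp14 (1.05) and Zfp30 (0.64) are past an adjusted p of 0.1, and Zfp27 (-0.38) and Zfp420 (-0.39) lie between Zfp30 and Zfp74.

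Of the 16 members in a list of neural and glial genes, Lgi4 alone passed the threshold, beside 0.167% of all genes. At an unadjusted p under 0.05 there were 5, Lgi4 higher and 4 lower, beside 8.79% of all genes, 1.32% higher and 7.47% lower. The median log2 fold change of the list was -0.34, beside -0.02 over all genes tested. Mag, a sialic acid-binding glycoprotein of myelin, was at 141 to 356 normalized CPM in the null and 201 to 583 in the intact samples (-0.55 ± 0.19, edgeR adjusted p = 0.428). Clip3, a microtubule-associated protein, had -0.43 ± 0.16, and Dpf1, a neuronal subunit of the BAF chromatin complex, -0.82 ± 0.38. Fxyd1, a regulator of the sodium pump, and Ttc9b had 1.60 and 1.54 without Q175 and -0.68 and -0.87 with it. The first pair of values fell to 0.28 and 0.66 without Tyrobp-/- replicate 20, where Fxyd1 was at 22.2 normalized CPM, against 2.66 and 5.09 in the other Tyrobp-/- samples, and Ttc9b at 8.36, against 2.02 and 2.503. The median level of the oligodendrocyte markers was 148 in the null and 135 in the intact samples, of the neuronal markers 19.6 and 22.3, and of the astrocyte markers 64.3 and 48.2. With the score of these markers as a term, the median of the list was -0.40 and 8 members were at an unadjusted p under 0.05 (11.8% of all genes). In the fits without a sample the median ran from -0.46 to -0.17. The ends were the fits without Tyrobp-/- replicate 20 (8 members, 19.3% of all genes) and without Q175 replicate 4 (4 members, 4.5%). Without Q175 replicate 14 it was -0.21 (2 members, 9.58%). With the score, Lgi4 had a log2 fold change of 1.34 (edgeR adjusted p = 0.0024).

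In the other lists no member passed the threshold in edgeR, and the counts at an unadjusted p under 0.05 stand beside 8.79% of all genes tested, 1.32% higher and 7.47% lower. Of 9 immune and myeloid members 1 had an unadjusted p under 0.05 (Nfkbid, higher), and Cd22, a sialic acid-binding receptor, had -0.54 ± 0.32 and Zfp36, which speeds the decay of inflammatory mRNAs, 0.17 ± 0.12. Of 7 mitochondrial members 1 did (Coq8b of coenzyme Q synthesis, -0.26 ± 0.10), and Cox6b1, a subunit of complex IV, had 0.05 ± 0.33. Of 12 members of transcription and RNA processing 1 did (the histone methyltransferase Kmt2b, -0.32 ± 0.13), and the splicing factor Hnrnpl had -0.12 ± 0.10. Of 11 members of translation and protein turnover 2 did, both lower, with the F-box protein Fbxo27 at -0.73 ± 0.30, and the ribosomal protein Rps16 had -0.12 ± 0.39. Of 16 signalling members 5 did, all lower, among them Sipa1l3. Of 9 metabolic enzymes and membrane proteins 1 did, the serine protease hepsin (Hpn), which was at 1.69 to 7.92 normalized CPM in the null and 4.37 to 19.2 in the intact samples (-0.97 ± 0.29, edgeR adjusted p = 0.374), and the potassium channel Kcnk6 had 0.42 ± 0.28. The list medians ran from -0.20 to 0.05.

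By level per kb of exon, the members were close to other genes, with a median of 4.04 normalized CPM per kb in the intact samples, beside 4.24 over all genes tested. Aplp1 stood highest at 120, followed by Mag at 89.8, Rps16 at 89.4 and Cox6b1 at 66.1. Of the 270 genes of the interval that did not pass the level filter, 176 had no read in any sample, and among them were 7 of 9 cytochrome P450 genes of the Cyp2 family.

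When the deletion was compared separately in mice without and with Q175, no member passed the threshold in edgeR. In Tyrobp-/- against WT, 0 of 143 members and 0.0222% of 18017 genes (4) passed it, 17 members were at an unadjusted p under 0.05 (6.82% of all genes), and 3 were called by DESeq2 (Zfp14, D7Ertd128e and Lgi4) beside 0.932% of all genes. In Q175;Tyrobp-/- against Q175, 0 of 142 members and 0.0111% of 18059 genes (2) passed it, 19 members were at an unadjusted p under 0.05 (8.01% of all genes), and 7 were called by DESeq2 (these 3, Zfp30, Zfp74, Sbsn and Ryr1) beside 0.227%. In a single edgeR fit over all 4 groups, which share the spread, 1 and 3 members passed. The comparisons share no sample. A log2 fold change of the same sign was found for 76 of 142 members, beside 49.8% of 17463 genes tested in both, so the members as a whole stood near the background. With an unadjusted p under 0.05 and the same sign in both there were 5 members, Sipa1l3, Zfp14, D7Ertd128e, Lgi4 and Hpn, beside 0.527% of all genes (92). D7Ertd128e, and Sbsn among the DESeq2 calls above, passed the level filter through intact samples, so their low null levels are a description. Pearson's r across the 142 members was 0.64 and Spearman's rank correlation 0.27, and 0.10 and 0.03 across the 17463 genes. Without D7Ertd128e they were 0.39 and 0.26 across 141 members. Across the 137 members past the level filter in both genotypes they were 0.36 and 0.23. Genes are not independent replicates.

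**Figure D5:**
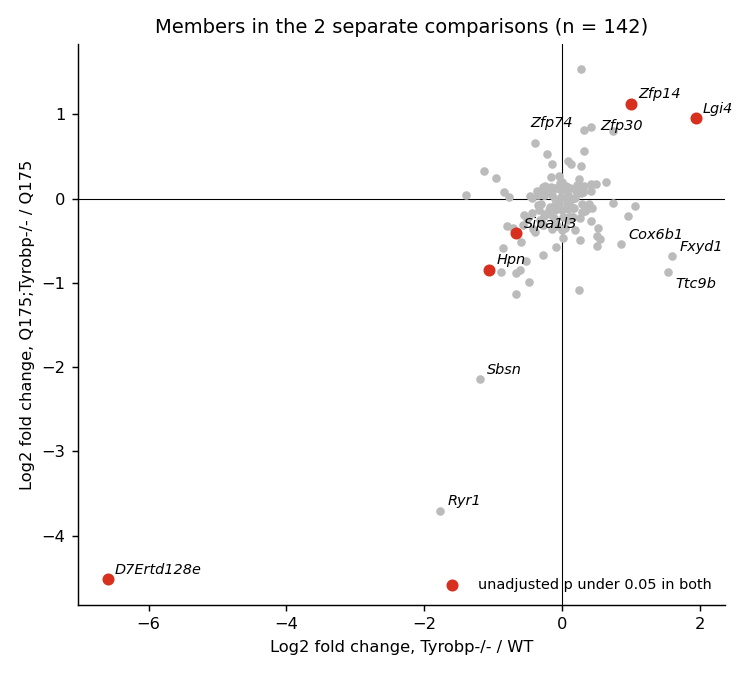
Log2 fold change of 142 members in Tyrobp-/- against WT (horizontal axis) and in Q175;Tyrobp-/- against Q175 (vertical axis), which share no samples. Red points have an unadjusted p under 0.05 in both comparisons (Sipa1l3, Zfp14, D7Ertd128e, Lgi4 and Hpn), and most of the other members lie around 0, in all quadrants. D7Ertd128e passed the level filter through intact samples alone.

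The samples of the Tyrobp-null and Tyrobp-intact groups did not overlap in Lgi4, nor in D7Ertd128e, which the level filter let in through its intact samples, making 2 members beside 0.0808% of all genes (14) and 1 among the 137 members past the filter in both genotypes. Scaled with DESeq2 size factors the number was 1, and without Tyrobp-/- replicate 20 or without Q175 replicate 4 it was 4. For each sample in turn, the members were called in a fit without it, and its own level was then set against the midpoint of the null and intact means of the other samples. In 62 of 74 such placements the left-out sample lay on the side of its own genotype, and for 11 of the 18 samples it did so at every member called without it. The 74 include D7Ertd128e (15 placements) and Sbsn (3), which both passed the level filter through intact samples, so the count is a description. Tyrobp-/- replicate 20 lay on the other side at 4 of 7 members (Ryr1, Sbsn, Zfp30 and Zfp74). At Lgi4, Q175 replicates 4 and 14 lay on the other side, and at Zfp14 Q175;Tyrobp-/- replicate 13 did. The other such placements were WT replicate 2 at Zfp30, Q175 replicate 17 at Sipa1l3, WT replicate 6 at D7Ertd128e and Sbsn, and Q175 replicate 4 at D7Ertd128e. Lgi4 and Zfp14 were called in all 18 fits and Zfp30 in 13. D7Ertd128e was called in the 15 in which it passed the level filter, which is a description for the same reason.

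The interaction of Q175 and the Tyrobp deletion was not significant at any member in edgeR (0 of 143, 0% of all genes) or in DESeq2 (0, beside 0.00577% of all genes, 1 gene). At an unadjusted p under 0.05 there were 12 members, beside 6% of all genes. For the Q175 term itself, no member passed the threshold either in edgeR (0% of all genes) or in DESeq2 (0.00577%, 1 gene), and 11 members had an unadjusted p under 0.05, beside 5.01% of all genes. Lgi4 was the only one of the 4 called members with an unadjusted p under 0.05 in that term (log2 fold change 0.49 ± 0.21, edgeR adjusted p = 0.814).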

How the data were processed

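The authors deposited 1 table of raw read counts per Ensembl gene, with 18 labelled columns. According to the methods, non-directional SMART-Seq libraries were aligned with STAR to GRCm38 and counted with featureCounts. All 55536 identifiers matched GENCODE M21, from which positions and exon lengths were taken. A further 2 columns had no labelled sample and were not used. Genotypes came from the labels. Counts were tested with edgeR 4.0.16 (TMM, quasi-likelihood, R 4.3.3) on genes that reached 1 CPM in 3 or more samples (in 1 or more for comparisons of pairs of groups), with DESeq2 1.42.0 as an alternative. Calls are at an adjusted p under 0.1 (Benjamini-Hochberg over all genes tested). The SE of a log2 fold change was back-calculated, as its absolute value over the square root of the quasi-likelihood F statistic. Normalized CPM are counts over TMM-scaled totals. The members, role lists and marker lists were chosen with earlier results of these data known. Named are members called, members within 100 kb of Tyrobp, and examples from the role lists. In each list these are those with the smallest p and the highest level per kb, with others picked after their values were seen. P-values measure the spread between samples, and the labels do not say that each is a separate animal. Intervals from summed counts cover counting error alone. Alternatives were another scaling, other filters and terms, and each sample left out. Promoter sequences are from RefSeq, with none used for Lgi4.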

Additional observations from a re-analysis of the deposited data

Results flagged for a closer look

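Within groups of 5 samples, the gap of the highest or lowest sample to its nearest neighbour took an unusually large part of the group's range in 6 of 84 tests over the named members, where chance gives about 1 in 20. In normalized CPM, Ryr1 in WT replicate 6 was 335, with the next sample at 52.3. Zfp36 in WT replicate 7 was 55, next 37.5. Cox6b1 and Lrfn3 in Q175 replicate 14, the library with the highest score of non-microglial markers, were 126 (next 50.6) and 6.14 (next 3.97). Kirrel2 in Q175 replicate 17 was 3.1, below the next at 6.25, and Fbxo27 in Q175;Tyrobp-/- replicate 5 was 3.2, next 1.57. Lgi4, Zfp14, Zfp30 and D7Ertd128e had no such sample.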

How the results depend on the processing

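Lgi4 and Zfp14 kept their direction and their call in all 29 alternatives, and Zfp30 its direction in 29 and its call in 22. Zfp30 lost the call without a filter (0.68), with total count scaling (0.73) and in 5 fits without a sample (0.61 to 0.63). D7Ertd128e was called in the 26 alternatives that tested it. It passed the level filter through intact samples alone, so these calls are a description and no support. DESeq2 gave 10 members and 137 genes in place of 4 and 29. Leaving out each sample gave 3 to 7 members, 7 without Tyrobp-/- replicate 20, and 23 to 62 genes, 62 without Q175 replicate 17. For Tyrobp-/- against WT (0 members, 4 genes) DESeq2 gave 3 and 168, no filter 1 and 15, the fit over all groups 1 and 8, the marker score as a term 0 genes, and leaving out a sample 0 to 1 members (1 without WT replicate 6) and 2 to 8 genes. For Q175;Tyrobp-/- against Q175 (0 members, 2 genes) they gave 7 and 41, 1 and 9, 3 and 15, and 1 gene, a threshold of 0.05 and sex as a term 1 gene each, and leaving out a sample 0 members and 1 to 5 genes. DESeq2 called 1 gene for the interaction and 1 for Q175. Among members past the level filter in at least 3 samples of each genotype, a choice made after seeing the data, 3 were called and 1 had no overlap. Members without overlap were 1 with DESeq2 size factors and 2 to 4 without a sample, 4 without Tyrobp-/- replicate 20 or Q175 replicate 4. Members of equal sign numbered 71 to 91 without a sample. The cause of these changes was not tested.

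Among members that passed no threshold, values near 0 changed sign: Zfp146 to 0.01 with DESeq2 and its size factors, 0.03 without a filter and 0.07 with total counts (-0.07 to 0.07 without a sample), Kirrel2 to -0.02 with the marker score (-0.05 to 0.42 without a sample) and Nphs1 to 0.01 in the group means model (-0.48 to 0.13). Rps16 ran from -0.31 to 0.09 and Cox6b1 from -0.22 to 0.41 without a sample. No paired analysis was possible because the groups share no replicate numbers. Members near 1 CPM, such as D7Ertd128e, rest on few reads, and a difference in such genes was not detectable at this depth unless large.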
